A study of Mus musculus with 5 samples.

Results

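The loci of the cardiac T-box genes Tbx3, Tbx5 and Tbx20 held 13 of the 21703 regions listed for Tbx3, Nkx2-5 and Gata4 by ChIP-seq (chromatin immunoprecipitation followed by sequencing) of adult mouse heart. Members were all listed regions that overlapped 1 of 2 windows of build mm9 by at least 1 bp: 120.02 to 120.44 Mb of chromosome 5, around the neighbouring genes Tbx3 and Tbx5, and 24.42 to 24.68 Mb of chromosome 9, around Tbx20. The rule uses positions of genes and no value of the lists. Of the 13 regions, 6 came from the Tbx3 list, 4 from the Nkx2-5 list and 3 from the Gata4 list, which hold 13242, 6705 and 1756 regions in all.

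The series comprises 5 libraries from whole hearts of adult mice of FVB/N background. Tbx3 was profiled in Myh6-MCM;CAG-CAT-TBX3 hearts, which carry a TBX3 transgene, and Nkx2-5 and Gata4 in wildtype hearts. Myh6, which names the first construct, is a myosin heavy chain gene of cardiomyocytes. The control library (the Tbx3 antibody in Myh6-MCM hearts) and the p300 library were not analysed here. Each list comes from 1 library, so no difference below has a replicate check or a test, and the Tbx3 list differs from the other lists in genotype as well as in factor, which cannot be told apart. The lists give positions only. Depth and enrichment of each region are unknown, and a region list holds no expression values against which the labelled tissue could be checked.

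T-box factors share a DNA-binding domain, the T-box, and act as activators or repressors of cardiac genes. Tbx3 is a repressor that sets the conduction system apart from working myocardium, Tbx5 is an activator of the atria, the ventricles and the conduction system, and Tbx20 is needed for cardiomyocyte growth and function. Nkx2-5, a homeodomain factor, and Gata4, a zinc-finger factor, are known to act together with T-box factors on cardiac genes. In the RefSeq gene table of GRCm38, used here for gene order only, no other protein-coding gene starts between Tbx3 and Tbx5, and Tbx3 comes first. The pair is flanked by Med13l and Rbm19, and Tbx20 by Cypt4 and Herpud2.

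The Tbx3-Tbx5 window, 420 kb long, held 10 regions, and the Tbx20 window, 260 kb long, held 3. Tbx3 had 5 regions in the first and 1 in the second. Nkx2-5 had 3 and 1, and Gata4 had 2 and 1. Together the regions covered 1294 bp (0.308%) of the Tbx3-Tbx5 window and 732 bp (0.282%) of the Tbx20 window. Every factor was therefore listed at both loci, but at few and narrow places.

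**Figure D1:**
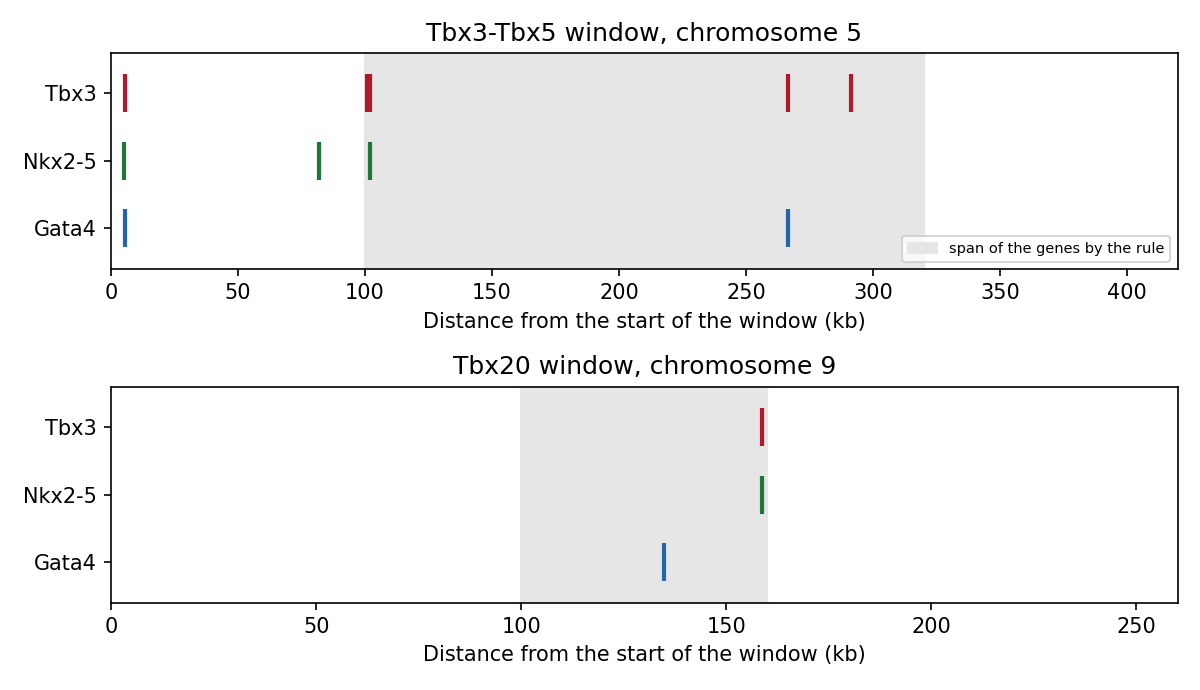
Regions of each factor along the 2 windows, with distance from the start of the window (kb) on the horizontal axis. Each mark is the centre of 1 region, not drawn to its width, and the grey band is the span of the genes by the rule, which sets about 100 kb on each side. The 2 Tbx3 marks near 101 and 102 kb touch each other. No factor has a mark beyond the grey band on its right in either window.

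All regions lay within the gene spans or on the side of lower coordinates. The rule allows about 100 kb on each side of the genes, which puts the spans at 120.12 to 120.34 Mb for Tbx3 and Tbx5 and at 24.52 to 24.58 Mb for Tbx20. In the Tbx3-Tbx5 window 1 Tbx3, 2 Nkx2-5 and 1 Gata4 regions lay below the span, 4 Tbx3, 1 Nkx2-5 and 1 Gata4 regions within it and none above it. All 3 regions of the Tbx20 window lay within the span. These limits are rounded to 10 kb, and no mm9 gene annotation was used here, so exons, introns and start sites cannot be assigned.

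The 13 regions joined into 8 separate places when overlapping regions were merged. Of these, 1 held all 3 factors, 2 held Tbx3 and Nkx2-5, 1 held Tbx3 and Gata4, 2 held Tbx3 alone, 1 held Nkx2-5 alone and 1 held Gata4 alone. In all, 4 of 8 places held more than 1 factor, against 15.7% of the 18483 places formed in the same way from the whole lists. No place in the windows joined Nkx2-5 and Gata4 without Tbx3, a kind that made up 1.99% of all places. Over the whole series 1.18% of places held all 3 factors, 11.7% held Tbx3 and Nkx2-5, and 0.855% held Tbx3 and Gata4. Places of Tbx3 alone made up 57.6%, of Nkx2-5 alone 21.2% and of Gata4 alone 5.41%.

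The place with all 3 factors was the outermost of the Tbx3-Tbx5 window. It lay at chr5:120025117-120025387 (mm9), on the Tbx3 side of the gene pair, about 95 kb below the span and 5.12 kb inside the border of the window. The Nkx2-5 region covered 120025117 to 120025336 (220 bp), the Gata4 region 120025240 to 120025372 (133 bp) and the Tbx3 region 120025253 to 120025387 (135 bp). A core of 84 bp, 120025253 to 120025336, was common to the 3 regions. The centres of the Gata4 and Tbx3 regions were 14 bp apart, closer than in most of the 392 overlapping Gata4 and Tbx3 pairs of the whole lists, of which 12.8% were as close. The Nkx2-5 region extended further to lower coordinates, with its centre 93.5 bp from that of Tbx3 and 79.5 bp from that of Gata4. Medians over all overlapping pairs were 38.5 bp for Nkx2-5 and Tbx3 and 46 bp for Gata4 and Nkx2-5, and 84.7% and 71.8% of those pairs were as close as here or closer.

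The gap before this place was long, and the gap after it was not unusual. No region of any list lay in the 762 kb before it, and 3.41% of the 18349 gaps between neighbouring places on the autosomes were as long. The next place after it, a single Nkx2-5 region, was 76.5 kb away, and 27.3% of the gaps were at least as long. Chromosome 5 held 14 places with all 3 factors, and the nearest others were 7.57 Mb before and 3.56 Mb after this one.

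The lone Nkx2-5 region lay between the 3-factor place and the gene span, at chr5:120101843-120101968. It was 126 bp wide, and 65.7% of the Nkx2-5 list was at least as wide. The nearest Tbx3 region was 18.7 kb away and the nearest Gata4 region 76.5 kb away. It was the only Nkx2-5 region of either window that overlapped no other list.

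At the limit of the span on the side of the Tbx3 gene, 3 regions formed a domain of 1496 bp at chr5:120120695-120122190, the only domain of the windows with more than 1 place when gaps of up to 10 kb were joined. Of the 12114 domains formed in this way from the whole lists, 17.1% held 3 or more regions. The first was a Tbx3 region at 120120695 to 120121158. Its 464 bp made it the widest member of any list, and 76 of the 13242 Tbx3 regions (0.574%) were at least as wide. It overlapped neither other list. Outside the Y and mitochondrial chromosomes 71 Tbx3 regions were as wide or wider, and 35.2% of them overlapped an Nkx2-5 or Gata4 region. After a gap of 863 bp followed an Nkx2-5 region at 120122022 to 120122190 (169 bp), which enclosed a Tbx3 region at 120122074 to 120122190 (117 bp). The enclosed Tbx3 region was among the narrow ones, since 79.1% of the Tbx3 list was at least as wide.

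The Nkx2-5 and Tbx3 regions of that pair ended on the same base, and their centres were 26 bp apart. A start or an end in common was found in 1.06% of the 2445 overlapping Nkx2-5 and Tbx3 pairs of the whole lists, and 38.0% of them had 1 region inside the other. No Gata4 region lay within 95 kb of this domain. Near the gene that encodes Tbx3, the Tbx3 list thus had 1 wide region of its own and 1 narrow region shared with Nkx2-5. Since this list comes from hearts with the TBX3 transgene and the control library was not analysed here, it does not show whether the factor lies there in wild-type hearts.

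**Figure D2:**
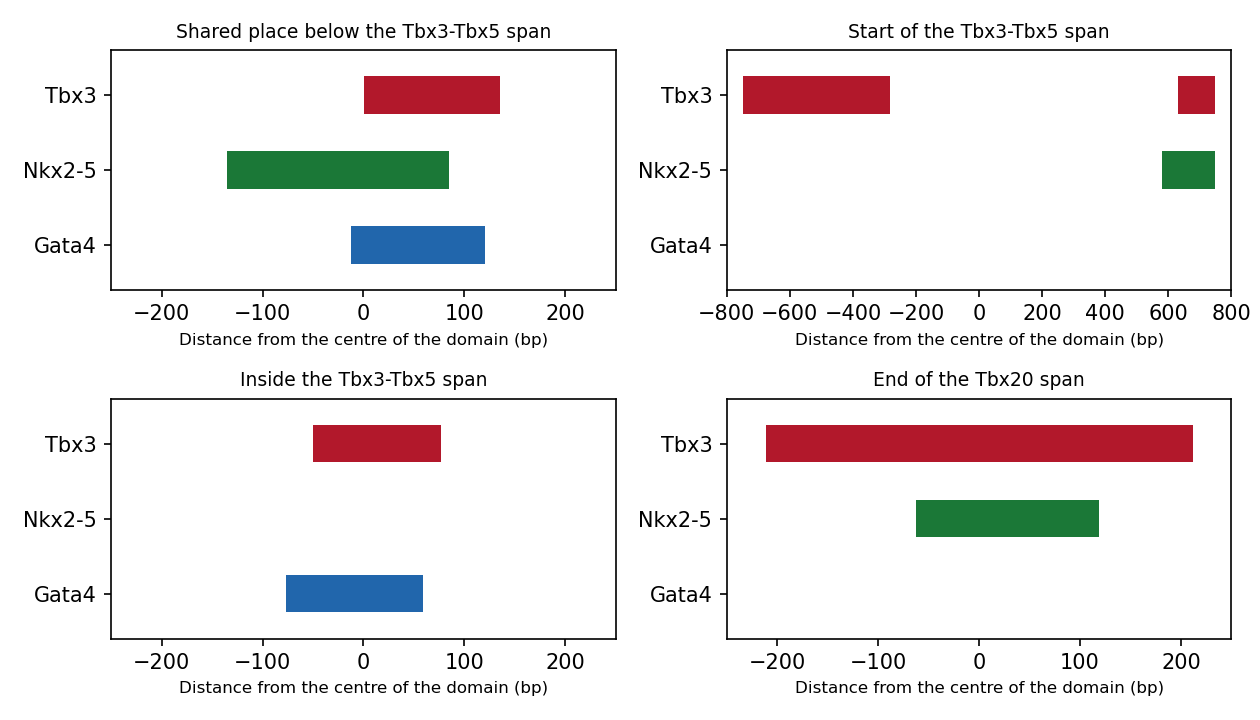
The 4 domains with more than 1 region, drawn to scale with distance from the centre of each domain (bp) on the horizontal axis and 1 bar per region. The upper right panel covers a wider range than the others. All 3 factors meet in the upper left panel, and the 464 bp Tbx3 region in the upper right panel has no bar of another factor above or below it.

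A stretch of 164 kb inside the span of Tbx3 and Tbx5 held no region of any list. On the autosomes 14.9% of gaps between neighbouring places were at least as long, and the median gap was 25.3 kb. Beyond it, in the part of the span nearer Tbx5, Tbx3 and Gata4 shared a place without Nkx2-5. The Gata4 region covered chr5:120286584-120286719 (136 bp) and the Tbx3 region chr5:120286611-120286736 (126 bp). They had 109 bp in common, 86.5% of the narrower region, and centres 22 bp apart, against a median of 65.3 bp for such pairs in the whole lists. The nearest Nkx2-5 region was 164 kb away.

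The last member on chromosome 5 was a Tbx3 region of 111 bp at chr5:120311457-120311567, 24.7 kb further on. It overlapped no other list and was the narrowest of the 13, with 86.5% of the Tbx3 list at least as wide. No region followed in the remaining 128 kb of the window, and the next outside it was an Nkx2-5 region 149 kb beyond the border. Of the regions towards Tbx5, 2 were thus of Tbx3, 1 of Gata4 and none of Nkx2-5. Those below the span and at its lower limit were all 3 Nkx2-5 regions and the other Tbx3 and Gata4 regions of the window. Most regions of the window lay in that lower part, and the split by factor was not tested.

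At Tbx20, Tbx3 and Nkx2-5 shared a place at the limit of the gene span with higher coordinates. The Tbx3 region covered chr9:24578604-24579026 (423 bp), and 1.03% of the Tbx3 list was at least as wide. The Nkx2-5 region, chr9:24578753-24578933 (181 bp), lay wholly inside it, with centres 28 bp apart, and 26.4% of the Nkx2-5 list was at least as wide. Gata4 was listed apart from them, at chr9:24554629-24554937 inside the span, 23.7 kb from the Tbx3 region. At 309 bp this was the widest Gata4 member, with 3.82% of the Gata4 list at least as wide. It overlapped no other list. Of the whole Gata4 list 43.1% overlapped another list. Of the 62 Gata4 regions as wide or wider (Y and mitochondrial chromosomes left out) 66.1% did.

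In the RefSeq table of GRCm38 Tbx20 lies on the minus strand, so its start is at the end of higher coordinates, the side on which the Tbx3 and Nkx2-5 regions were listed. Of the 3 genes, 1 (Tbx20) has an entry in the promoter table used here. The 250 bases before its start are shown for that reason, with CG dinucleotides in capitals (GRCm38, minus strand, chr9:24774304-24774553, printed 5′ to 3′). That position cannot be set against the mm9 regions, and whether the regions cover this sequence was not tested.
Tbx20 promoter: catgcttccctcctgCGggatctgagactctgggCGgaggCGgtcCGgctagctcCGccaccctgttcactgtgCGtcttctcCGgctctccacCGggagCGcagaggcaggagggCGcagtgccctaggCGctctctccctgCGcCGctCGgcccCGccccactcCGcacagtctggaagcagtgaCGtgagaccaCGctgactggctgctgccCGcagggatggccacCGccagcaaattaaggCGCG
It holds 22 CG dinucleotides and 68.8% G and C, against medians of 6 and 52.4% over the 32851 promoter windows of the table. On neither strand does it hold the T-box letters GGTGTGA, the Nkx2-5 letters AAGTG or the GATA letters AGATAA, which occur in 3.33%, 40.7% and 9.99% of all windows of the same length. This says only that these letters are not in this stretch.

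Both wide Tbx3 regions, of 464 and 423 bp, lay within 10 kb of a limit of a gene span, and so did the 117 bp Tbx3 region. The rule rounds these limits to 10 kb, so shorter distances to them are not resolved. The 4 narrower Tbx3 members, with the 117 bp region among them, were 111 to 135 bp wide. They were below the list's median of 147 bp, and the median of the 6 was 130.5 bp. Of the 4 Nkx2-5 members (126 to 220 bp, median 175 bp), 3 were wider than the list's median of 142 bp. Of the 3 Gata4 members, 2 were narrower than the list's median of 149 bp, at 133 and 136 bp. Width is the one property besides position that the lists give, and it does not measure enrichment.

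**Figure D3:**
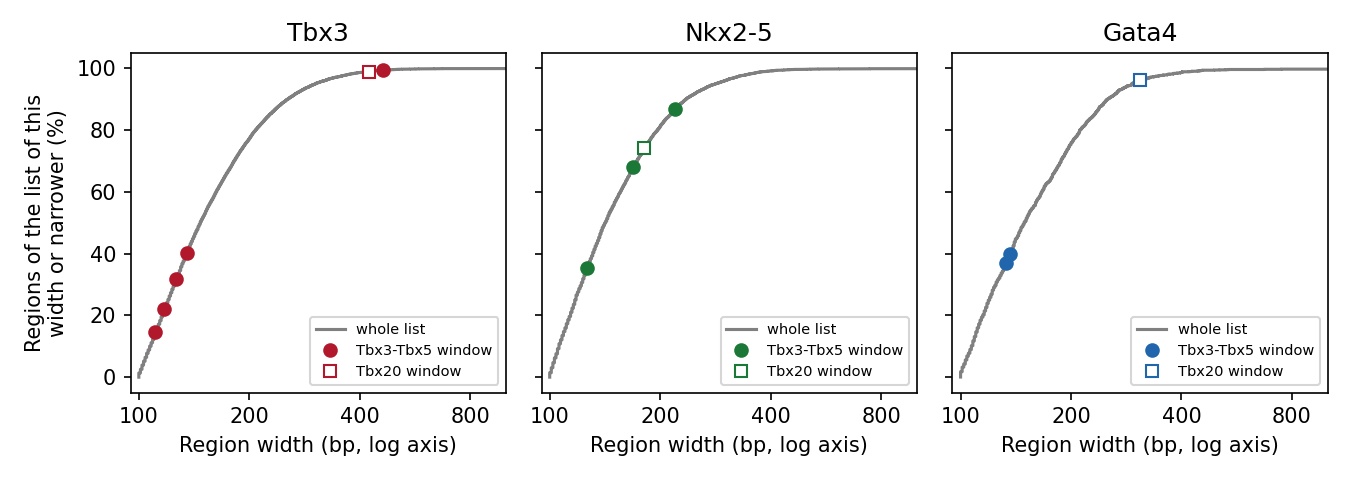
Width of the members (bp, log axis) on the cumulative curve of their whole list, with the share of the list of this width or narrower (%) on the vertical axis. Filled circles are regions of the Tbx3-Tbx5 window and open squares those of the Tbx20 window. For Tbx3, 2 members sit near the top of the curve and 4 below its middle.

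Taken with any other list, regions of each factor at these loci overlapped in a larger share than the list as a whole, on very small numbers. For Gata4 with Nkx2-5 the shares were alike. Of the 6 Tbx3 regions, 4 overlapped an Nkx2-5 or Gata4 region (66.7%, exact Clopper-Pearson 95% interval 22.3 to 95.7%), against 19.6% of the Tbx3 list. With Nkx2-5 the count was 3 of 6 (interval 11.8 to 88.2%), against 18.3%, and with Gata4 it was 2 of 6 (interval 4.33 to 77.7%), against 2.92%. Of the 4 Nkx2-5 regions, 3 overlapped Tbx3 (interval 19.4 to 99.4%), against 35.8% of the list, and 1 overlapped Gata4, against 8.90%. In all 3 of the 4 overlapped any other list (interval 19.4 to 99.4%), against 41.4%. Of the 3 Gata4 regions, 2 overlapped any other list (interval 9.43 to 99.2%), against 43.1%. The same 2 overlapped Tbx3 (66.7%, 9.43 to 99.2%), against 21.3%. With Nkx2-5, 1 overlapped (33.3%, 0.840 to 90.6%), against 33.4%. For the Nkx2-5 and Gata4 regions, every interval printed here thus includes the share of the list. With the wider 50% of each list, 1 Tbx3, 2 Nkx2-5 and 0 Gata4 regions remained in the Tbx3-Tbx5 window. In the Tbx20 window 1 of each remained. Of these, 1 Tbx3, 1 Nkx2-5 and 0 Gata4 regions were shared. With lists of nearly equal length, 1 Tbx3, 1 Nkx2-5 and 2 Gata4 regions remained in the Tbx3-Tbx5 window, and 1 of each at Tbx20. Of these, 1 Tbx3, 2 Nkx2-5 and 1 Gata4 regions were shared. The share over the whole shortened lists was not computed. The intervals treat regions as independent draws, cover counting error at most and are no test. Neighbouring regions at 1 locus are not independent, and the same overlaps enter the count of each list. Whether a list's share lies inside or outside an interval therefore decides nothing.

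The number of regions at the Tbx3-Tbx5 locus lay above the median of the autosomes, which was 0 for each factor, without being rare there. A single region is enough to exceed such a median. The autosomes were divided into 5853 tiles of the same length as the window. Tiles were laid without regard to genes, whereas the window was set around genes. For Tbx3, 17.7% of tiles held 5 or more regions (median 0, at most 43). For Nkx2-5, 15.8% held 3 or more, and for Gata4, 6.07% held 2 or more. Regions of all 3 lists were found together in 15.1% of tiles. Per 100 kb the window had 1.19 Tbx3 regions against 0.624 on chromosome 5 as a whole, 0.714 Nkx2-5 regions against 0.294, and 0.476 Gata4 regions against 0.0769. The last 2 densities rest on 3 and 2 regions, and the gene span alone held 1 Nkx2-5 and 1 Gata4 region.

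At Tbx20 the single regions of Tbx3 and Nkx2-5 were no more than many tiles of that length held. Of 9458 tiles of 260 kb, 39.9% held at least 1 Tbx3 region, 32.8% at least 1 Nkx2-5 region and 13.3% at least 1 Gata4 region. All 3 lists were present in 8.75%. The Tbx3 density, 0.385 per 100 kb, was below the 0.603 of chromosome 9, while Nkx2-5 at 0.385 and Gata4 at 0.385 were above 0.298 and 0.0784. Each of these densities is 1 region in 260 kb, the lowest value above 0 that the window can give. For Nkx2-5 and Gata4 the comparison therefore says only that a region was listed.

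**Figure D4:**
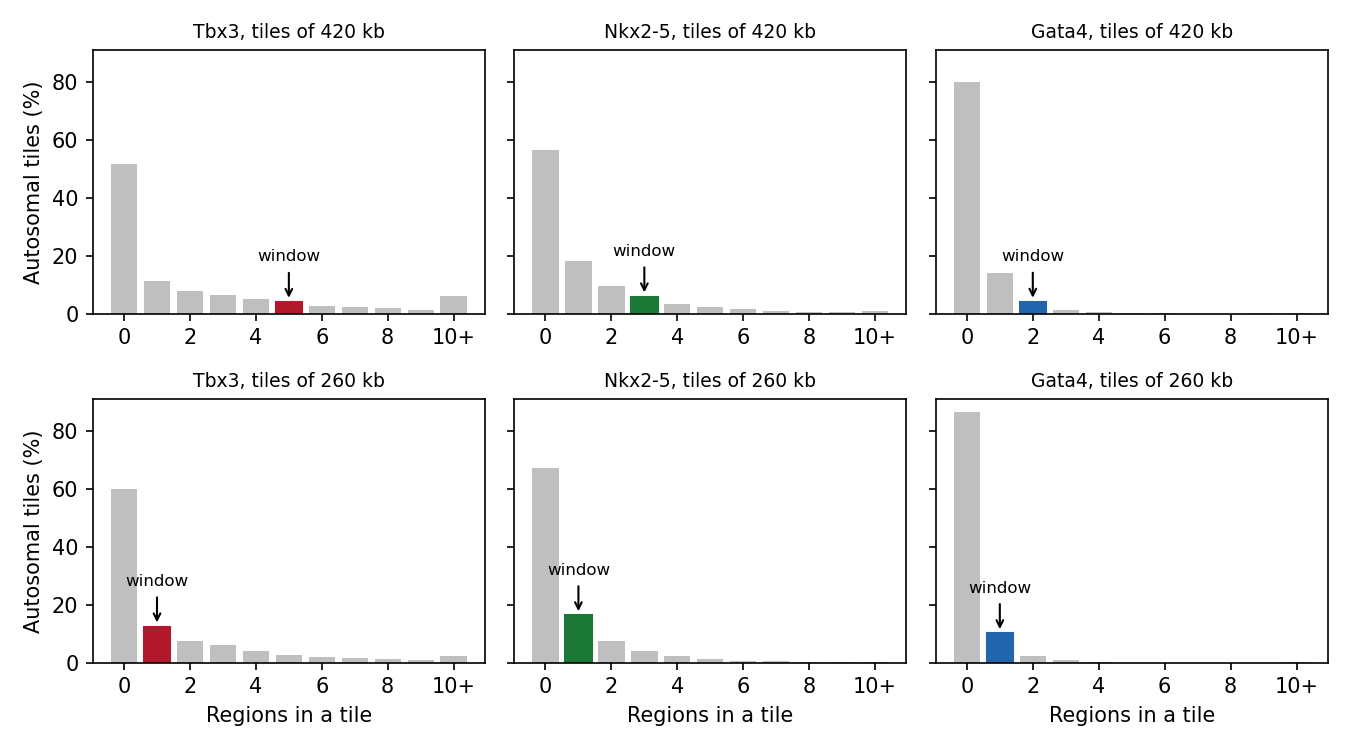
Share of autosomal tiles (%) by the number of regions they hold, for tiles as long as the Tbx3-Tbx5 window (upper row) and the Tbx20 window (lower row), with 10 or more joined in the last bar. The coloured bar marks the number found in the window itself. In every panel the tallest bar is that of tiles with no region, and the window stands to its right.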

How the data were processed

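Regions bound by Tbx3, Nkx2-5 and Gata4 were read from the 3 lists deposited by the authors. Per the file headers and their values, each line holds a chromosome, a start and an end, with no count, score or p-value. Positions are on mm9, per the submitters' processing notes. How reads were aligned, how regions were called and how deep the libraries were is not given in the sources used here. Starts were read as counted from 0 and are printed counted from 1. Samples were grouped by their source label.

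Regions were compared with Python 3.11.15 and numpy 2.4.6, intervals came from scipy 1.17.1, and the functions were tested on simulated lists with planted overlaps. Overlap meant at least 1 bp, and domains joined gaps of up to 10 kb. Tiles covered chromosomes 1 to 19 up to the last listed region. Regions printed with positions are all Gata4 regions, all shared regions, the widest of each factor in each window and the domains with 3 or more regions or several factors. The remaining lone regions were too few to summarise, and were also printed. The windows, lists and rules were chosen with earlier results of these data known. No position was converted between builds. The planned comparisons of T-box proteins and of region sequences were not run, since no protein table or mm9 genome was used here.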

Additional observations from a re-analysis of the deposited data

How the results depend on the processing

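Of 66 alternative values for 21 results, 48 stayed within 1.5 times and 18 moved further. With the wider 50% of each list (at least the median width), the Tbx3-Tbx5 window kept 1 Tbx3, 2 Nkx2-5 and 0 Gata4 regions. The Tbx20 window kept 1 of each. Of the regions kept in both windows, 1 Tbx3, 1 Nkx2-5 and 0 Gata4 regions were shared, and 0 by all 3 factors. The lists were also cut to nearly equal lengths (1777, 1770 and 1756 widest regions). The Tbx3-Tbx5 window then held 1 Tbx3, 1 Nkx2-5 and 2 Gata4 regions, and the Tbx20 window 1 of each. Among these, 1 Tbx3, 2 Nkx2-5 and 1 Gata4 regions were shared, and 0 by all 3 factors. Fewer regions enter both settings by construction, and width is not enrichment. The gene spans alone left 1 Nkx2-5 and 1 Gata4 region at Tbx3-Tbx5, 1 shared Gata4 region and 0 shared by all factors, because the 3-factor place lies outside the span. Windows widened by 100 kb a side held 3 Nkx2-5 and 2 Gata4 regions at Tbx20. Joining gaps of up to 50 kb gave 4 domains in place of 7. Sharing by 50% of the shorter region or by centres within 500 bp changed no count, and a gap of up to 1 kb added the 464 bp Tbx3 region, for 5 shared. Shifting the start of the tiles, an alternative chosen after seeing the data, moved no share by 1.5 times. No paired analysis was possible because each factor has 1 library, and leaving out a replicate was not possible either.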

Other observations

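The regions nearest to the windows on the outside differed between the loci. Around Tbx20, a Gata4 region of 139 bp lay 44.4 kb beyond the upper border, at chr9:24724375-24724513, and an Nkx2-5 region of 112 bp lay 81.2 kb beyond it, at chr9:24761199-24761310. Neither overlapped another list. Further on, 276 kb beyond the border, a Tbx3 region of 714 bp at chr9:24956038-24956751, wider than any member, overlapped an Nkx2-5 region. Below the Tbx20 window the nearest region was of Tbx3, at 112 kb. Around Tbx3 and Tbx5 the nearest regions were an Nkx2-5 region 149 kb above the window and another 757 kb below it. These regions were picked by distance after the values were seen, and the genes they lie near are not named because no annotation of mm9 was used here.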
